A study of Homo sapiens with 4 samples.

Results

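The miRNAs described here are miR-21, miR-146a, miR-146b and miR-155, which are known as targets of the inflammatory transcription factors NF-kB and STAT3. They were selected by name in the table of miRNA counts, and 4 of its 746 names matched, namely the 5p arms miR-21-5p, miR-155-5p, miR-146a-5p and miR-146b-5p. No name of a 3p arm of these miRNAs was analysed here. The miR-seq data came from U-251, an established human glioblastoma cell line, in 4 libraries labelled as biological replicates of wild-type cells that received the vehicle DMSO. The study itself describes non-irradiated cells under basal conditions and does not mention a vehicle. All 4 libraries belong to 1 group, with no stimulated, inhibited or irradiated sample among them. Induction by NF-kB or STAT3 was therefore not measured, and the values below are levels in unstimulated cells of a single cell line.

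NF-kB is held in the cytoplasm by inhibitor proteins and enters the nucleus once the inhibitor is destroyed. Toll-like receptors, tumor necrosis factor or related signals switch on the kinases that mark the inhibitor for destruction. STAT3 is phosphorylated by Janus kinases downstream of cytokine and growth factor receptors and is often active in gliomas. A miRNA such as those transcribed under their control is cut from a hairpin, loaded into AGO2 and pairs with mRNAs through its seed, the bases near its 5′ end. miR-21 represses PDCD4, an inhibitor of translation, and is among the best known oncogenic miRNAs in glioblastoma. miR-155 represses SOCS1 and INPP5D, which restrain cytokine and lipid kinase signaling. miR-146a and miR-146b repress TRAF6 and IRAK1 and so feed back on the signals that activate NF-kB.

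The mature sequences are shown because the seed defines the targets and because the miR-146 pair is nearly identical. They are the RefSeq sequences on GRCh38.p14, given 5′ to 3′ in RNA letters with the seed, bases 2 to 8, in capitals. RefSeq held a mature sequence for 674 of the 746 names and for all 4 miRNAs here.
miR-21-5p: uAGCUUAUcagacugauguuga
miR-155-5p: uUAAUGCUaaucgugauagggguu
miR-146a-5p: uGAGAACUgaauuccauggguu
miR-146b-5p: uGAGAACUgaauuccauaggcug

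The 4 miRNAs fall into 3 seed groups. miR-146a-5p and miR-146b-5p share the seed GAGAACU, whereas the seeds of miR-21-5p and miR-155-5p occur once each among the 4. In RefSeq the seed of miR-21-5p also occurs in miR-590-5p and that of the miR-146 pair in miR-7153-5p, neither of which was analysed here. No other human miRNA of the RefSeq table used here had the seed of miR-155-5p. miR-146a-5p and miR-146b-5p have the same first 17 bases. Counted from 1 at the 5′ end and read from miR-146a-5p to miR-146b-5p, the differences are G18A and U21C, and miR-146b-5p is 23 bases long against 22. The capitals in the next lines mark these differing bases and the additional last base.
miR-146a-5p: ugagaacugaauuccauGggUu
miR-146b-5p: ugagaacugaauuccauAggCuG
A read that ends before base 18 is therefore the same for both, and how the authors' counting assigned such reads is not given in the sources used here. The GC content of the mature sequences was 36.4% for miR-21-5p, 37.5% for miR-155-5p, 40.9% for miR-146a-5p and 43.5% for miR-146b-5p.

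Each of the 4 miRNAs has a single hairpin gene in RefSeq, on 4 different chromosomes and in each case on the plus strand. The mature miR-21-5p lies at chr17:59841273-59841294, within exons of annotated transcripts of the protein-coding gene VMP1, which encodes a membrane protein of autophagy. miR-155-5p lies at chr21:25573983-25574006, within exons of the long non-coding gene MIR155HG. miR-146a-5p lies at chr5:160485372-160485393, within exons of the long non-coding gene MIR3142HG. miR-146b-5p lies at chr10:102436520-102436542, where GENCODE release 44 annotates no gene other than its own hairpin. The hg38 bases at all 4 positions were identical to the mature sequences.

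The libraries held between 12363104 and 13214969 counts. Values were given for 621 names in at least 1 library, and 280 names reached at least 10 counts in all 4, including the 4 described here. These 280 are called the well counted miRNAs below. A cell without a value was blank and was treated as 0 counts. Blanks can fall on names with many counts in another library, as for miR-132-5p with 1797 counts in replicate 1 and blanks elsewhere, but none fell on the 4 miRNAs. Replicate 1 stood apart from the other libraries for a number of miRNAs, so values without it are given where it decides a result. White blood cells are known to be rich in miR-155 and miR-146a. Of their markers miR-142, miR-223 and miR-150, miR-142-5p had 3 counts in replicate 1 and no value elsewhere. miR-150-5p had 13 to 37 counts, and miR-223 was not analysed here. The summed share of these white blood cell markers lay between 0.000106% and 0.000290%. miR-486-5p, of the erythroid markers miR-451a, miR-144 and miR-486, had between 1515.5 and 2671.5 counts, miR-144-5p had 6 counts in replicate 3 only and miR-451a had no value. miR-126-5p, an endothelial marker, had 905 to 1329 counts and miR-124-5p, a neuronal marker, had no value. Of the brain markers, miR-9-5p had 130940 to 253779 counts, miR-128-1-5p 21701 to 32683, miR-219a-5p 31.5 to 41.5 and miR-338-5p at most 7.

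miR-21-5p was by far the most counted of the 4, followed by miR-155-5p, and the miR-146 pair was low. Each level is given as the percentage of all counts of its library. miR-21-5p held 5.55% of the counts of replicate 1, 2.40% of replicate 2, 2.23% of replicate 3 and 2.09% of replicate 4. Replicate 1 was thus more than double any other library, while the remaining 3 lay close together. In bulk RNA, a larger part of cells with a high level and a higher level per cell cannot be told apart. A share also depends on all other counts of its library, and the cause of the excess in replicate 1 was not tested. The mean share was 3.07% ± 1.66 (SD, n = 4). Without replicate 1 it was 2.24% ± 0.154 (SD, n = 3). miR-21-5p ranked 4 in replicate 1, 10 in replicates 2 and 3 and 9 in replicate 4. By the count summed over the libraries, 1554391, it ranked 5, between miR-125b-5p with 1956787.5 counts and let-7f-5p with 1536763. Replicate 1 supplied 695665 of the miR-21-5p counts, and without it the median rank was 10 (n = 3).

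miR-155-5p was a moderately abundant miRNA with almost the same level in every library. In replicates 1 to 4 its share was 0.320%, 0.350%, 0.329% and 0.296%, from 37699 to 46266 counts. The highest library exceeded the lowest by a factor of 1.18, and the mean was 0.324% ± 0.0225 (SD, n = 4). Its rank was 33 in replicates 1 and 3, 36 in replicate 2 and 34 in replicate 4. By summed count it ranked 36, next to let-7d-5p above and miR-382-5p below. Replicate 1, which stood out for miR-21-5p, was in the middle of the range for miR-155-5p.

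miR-146a-5p was counted 648 times in replicate 1, 271 times in replicate 2, 519 times in replicate 3 and 374 times in replicate 4. Scaled to a library total of 1000000 counts (CPM), these were 51.7, 20.5, 42.0 and 29.3. The highest library was 2.52 times the lowest, and the 95% Wilson intervals of the 4 shares did not overlap, so the libraries differed beyond counting error. Such intervals cover counting error only. The mean share was 0.00359% ± 0.00137 (SD, n = 4), and the median rank was 161, with 188 in replicate 2.

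miR-146b-5p was counted 468 times in replicate 1, 360 times in replicate 2, 324 times in replicate 3 and 300 times in replicate 4, or 37.3, 27.2, 26.2 and 23.5 CPM. Replicate 1 was the highest, and its interval of 0.00341% to 0.00408% lay above those of the other libraries. The intervals of replicates 2, 3 and 4 overlapped one another. The mean share was 0.00286% ± 0.000603 (SD, n = 4), and the rank lay between 168 and 178. Both miR-146 names were below the median mean share of 0.00724% among the 280 well counted miRNAs, whereas miR-155-5p and miR-21-5p were above its upper quartile of 0.0598%.

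**Figure D1:**
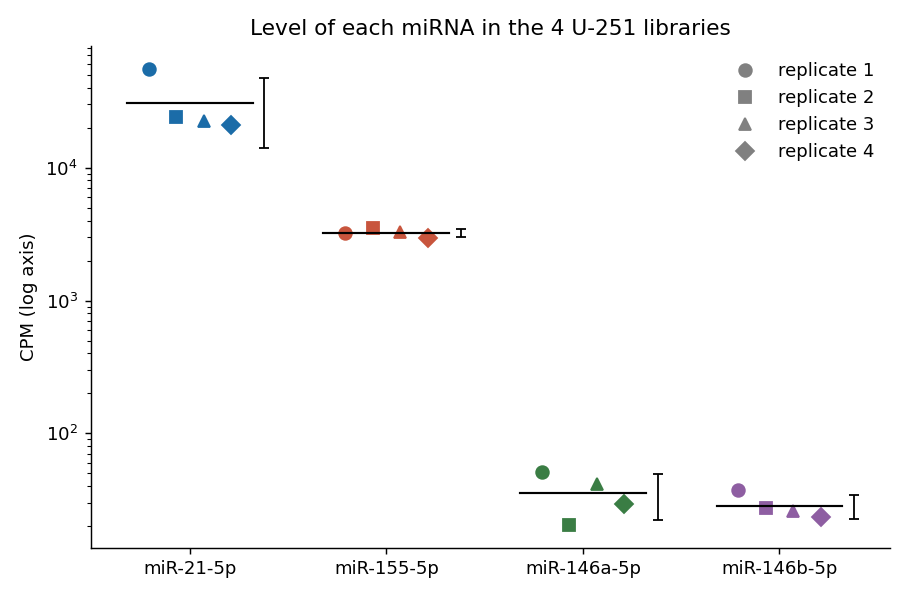
Level of miR-21-5p, miR-155-5p, miR-146a-5p and miR-146b-5p in CPM on a log axis. Points are the 4 libraries, with a symbol for each replicate, the horizontal line is the mean and the bar beside it is ± 1 SD (n = 4). The miR-155-5p points lie within a factor of 1.18, while replicate 1 of miR-21-5p stands at 55463 CPM above 20905 to 23983 CPM in the others.

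Together the 4 miRNAs held 5.88%, 2.75%, 2.56% and 2.39% of the counts of replicates 1 to 4. miR-21-5p made up 94.4% of their sum in replicate 1 and 86.9% to 87.4% in the other libraries. Most of what remained was miR-155-5p. The count of miR-155-5p was 36.0, 73.3, 48.2 and 55.9 times the summed count of the miR-146 pair in replicates 1 to 4.

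The ratio of miR-146b-5p to miR-146a-5p was 0.722, 1.33, 0.624 and 0.802 in replicates 1 to 4. miR-146a-5p was thus ahead in 3 libraries and miR-146b-5p in 1. As a share of the counts of both, miR-146b-5p held 41.9% in replicate 1 (95% Wilson interval 39.1% to 44.9%), 57.1% in replicate 2 (53.2% to 60.9%), 38.4% in replicate 3 (35.2% to 41.8%) and 44.5% in replicate 4 (40.8% to 48.3%). No interval included an equal split of 50%, so the order within each library was beyond counting error, but it differed between libraries. The log2 ratio averaged -0.26 ± 0.47 (SD, n = 4) and ranged from -0.68 to 0.41, so the mean difference of the seed partners did not exceed its spread over the libraries. An exact sign-flip permutation test, two-sided, gave p = 0.375. In replicate 2 miR-146a-5p was at its lowest level of the 4 libraries, while miR-146b-5p was close to its levels in replicates 3 and 4. Summed over the pair, the seed group had 1116, 631, 843 and 674 counts in replicates 1 to 4, or 0.00644% ± 0.00185 of the library (SD, n = 4).

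**Figure D2:**
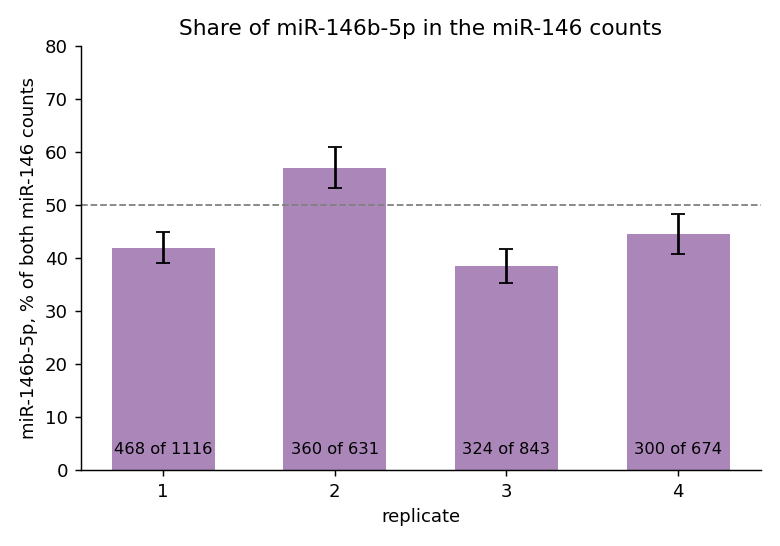
Percentage of the summed miR-146a-5p and miR-146b-5p counts that were miR-146b-5p, by replicate. Bars start at 0, error bars are 95% Wilson intervals for counting error, the text gives the counts and the dashed line marks 50%, which is exceeded in replicate 2 (57.1%) and not in replicates 1, 3 and 4 (38.4% to 44.5%).

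Each miRNA was then set against miR-21-5p within the same library, a ratio that does not depend on how libraries are scaled. miR-155-5p stood at 5.77%, 14.6%, 14.8% and 14.1% of the miR-21-5p count in replicates 1 to 4. Its level relative to miR-21-5p was therefore lowest in replicate 1 and nearly constant in the others. The mean log2 ratio was -3.12 with an SD of 0.67, which corresponds to a geometric mean of 8.68 miR-21-5p counts for each miR-155-5p count. Without replicate 1 the mean log2 ratio was -2.79 (n = 3).

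For miR-146a-5p the level was 0.0931%, 0.0855%, 0.189% and 0.140% of miR-21-5p in replicates 1 to 4. For miR-146b-5p it was 0.0673%, 0.114%, 0.118% and 0.113% in replicates 1 to 4. The miR-146b-5p ratio was again low in replicate 1 and nearly constant elsewhere, while that of miR-146a-5p varied throughout. The mean log2 ratios to miR-21-5p were -9.70 ± 0.53 for miR-146a-5p and -9.96 ± 0.39 for miR-146b-5p (SD, n = 4). miR-21-5p was counted 830 times as often as miR-146a-5p and 997 times as often as miR-146b-5p by these geometric means. For miR-146b-5p the fold was 1486 in replicate 1 and 850 to 888 in replicates 2 to 4. Without replicate 1 the mean log2 ratios were -9.57 for miR-146a-5p and -9.77 for miR-146b-5p (n = 3).

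**Figure D3:**
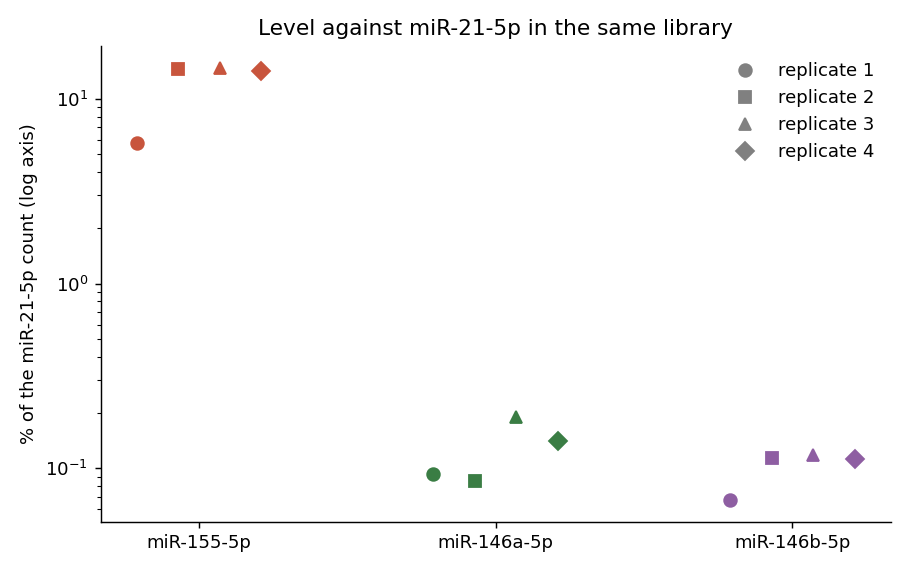
Level of miR-155-5p, miR-146a-5p and miR-146b-5p as a percentage of the miR-21-5p count of the same library, on a log axis, with a symbol for each replicate. Replicate 1 is the lowest for miR-155-5p (5.77% against 14.1% to 14.8%) and for miR-146b-5p (0.0673% against 0.113% to 0.118%), and replicate 2 is the lowest for miR-146a-5p (0.0855%).

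The order of the levels was miR-21-5p, miR-155-5p and then the miR-146 pair in all 4 libraries. Of the 6 pairs of these miRNAs, 5 kept the same direction in 4 of 4 libraries, each with p = 0.13 by the same exact permutation test, the smallest value that 4 libraries can give, and 0.15 after Benjamini-Hochberg adjustment over the 6 pairs. In the narrowest of these 5 pairs, miR-21-5p had 20905 CPM in its lowest library, 5.97 times the 3501 CPM of miR-155-5p in its highest. Within a library the ratio of the pair was lowest in replicate 3, at 6.77. miR-146a-5p and miR-146b-5p, neighbours in this order, did not differ beyond their spread.

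The 4 miRNAs differed widely in how much they varied between the libraries. The spread was measured as the SD of log2 CPM over 4 libraries, whose median was 0.29 among the 280 miRNAs. It was 0.66 for miR-21-5p, which ranked 24 from the most variable, and 0.59 for miR-146a-5p, which ranked 32. For miR-146b-5p it was 0.29, close to the median. For miR-155-5p it was 0.10, which ranked 14 from the least variable. Counting error alone would give about 0.0023 for miR-21-5p, 0.0071 for miR-155-5p, 0.068 for miR-146a-5p and 0.076 for miR-146b-5p, so the spread of each exceeded its counting error. With edgeR's TMM factors in place of library totals the SD of miR-155-5p was 0.039, which ranked 5 from the least variable, and with upper-quartile factors it was 0.063. Without replicate 1 the SD was 0.099 for miR-21-5p, 0.12 for miR-155-5p, 0.52 for miR-146a-5p and 0.11 for miR-146b-5p (n = 3). miR-146a-5p then still ranked 25 from the most variable, whereas miR-21-5p ranked 44 from the least variable.

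**Figure D4:**
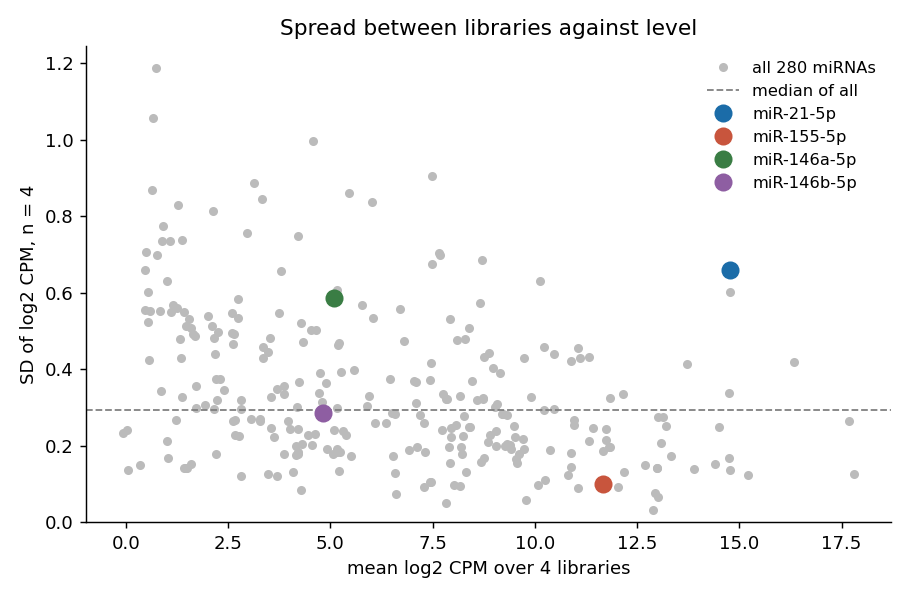
SD of log2 CPM over the 4 libraries against the mean log2 CPM, for the 280 well counted miRNAs (grey) and the 4 miRNAs described here (colored). The dashed line is the median SD of 0.29, with miR-21-5p (0.66) and miR-146a-5p (0.59) above it, miR-146b-5p on it and miR-155-5p (0.10) below it.

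Replicate 1 was examined further because it carried much of this spread. On the log2 scale, miR-21-5p in replicate 1 exceeded the mean of replicates 2 to 4 by 1.31, which is the tenth largest difference among 280 and corresponds to 2.48-fold. The difference was 0.82 for miR-146a-5p, 0.54 for miR-146b-5p and -0.02 for miR-155-5p, beside a median of -0.05 over all 280 miRNAs. A single library was called apart from the other 3 when its gap to the nearest of them, divided by the range of all 4, exceeded Dixon's 95% critical value. This was the case for 31 of the 280 miRNAs, or 11.1%, and with replicate 1 as the high library for 17, or 6.07%. Of the 4 miRNAs only miR-21-5p was called, with a gap of 0.911 of its range. The corresponding values were 0.731 for miR-146b-5p, 0.449 for miR-155-5p and 0.311 for miR-146a-5p. What set replicate 1 apart was not tested.

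**Figure D5:**
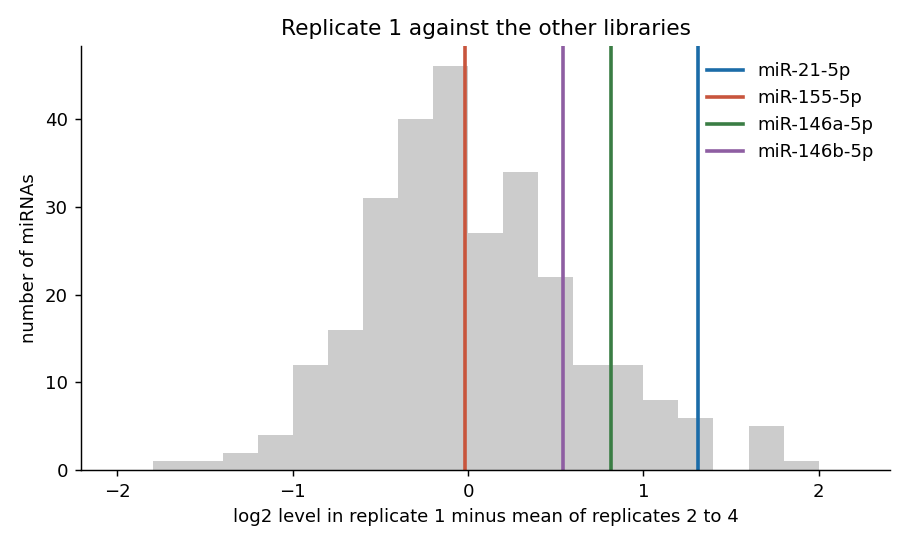
Difference between the log2 level in replicate 1 and the mean log2 level in replicates 2 to 4 for 280 miRNAs (grey histogram, number of miRNAs per bin of log2 difference). Colored lines mark miR-155-5p at -0.02, miR-146b-5p at 0.54, miR-146a-5p at 0.82 and miR-21-5p at 1.31.

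For each of the 4 miRNAs, those most like it were taken as the 3 names with the smallest SD of the log2 ratio to it over the 4 libraries, out of 279 candidates. Because the closest of many were picked, these SDs describe the match and test nothing. The names closest to miR-21-5p were miR-19b-2-5p (SD 0.047), miR-19b-1-5p (0.052) and miR-454-5p (0.075). miR-19b-2-5p had 5285, 2278, 1936 and 1957 counts in replicates 1 to 4, high in replicate 1 as was miR-21-5p. The closest to miR-155-5p were miR-320b (0.019), miR-320c (0.021) and miR-329-5p (0.028), all nearly level between libraries. For miR-146b-5p they were miR-30e-5p (0.030), miR-128-1-5p (0.048) and miR-3164 (0.063), the last with only 19 to 32 counts. For miR-146a-5p no name came as close, the nearest being miR-7-5p (0.19), miR-29c-5p (0.24) and miR-29b-1-5p (0.27). None of the 4 was among the closest names of another. The SD of the log2 ratio was 0.47 between the miR-146 pair and 0.67 between miR-21-5p and miR-155-5p, the widest of the 6 pairs.

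The miR-19b names also bear on what a 5p name counts in these data. miR-19b-1-5p and miR-19b-2-5p had nearly equal counts, with ratios of 1.00 to 1.01 in the 4 libraries. In RefSeq their 5p sequences differ, shown here in lower case, while both hairpins give the same miR-19b-3p.
miR-19b-1-5p: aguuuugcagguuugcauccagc
miR-19b-2-5p: aguuuugcagguuugcauuuca
miR-19b-3p: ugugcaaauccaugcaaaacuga
Whether reads of the 3p arm entered counts listed under 5p names was not tested, and for the 4 miRNAs described here the arm behind the counts cannot be told apart from the table.

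Other miRNAs linked to the same pathways were taken from a list by name, in any arm. It held 9 miRNAs linked to NF-kB or AP-1, the partner factor that often acts with both, and 7 linked to STAT3. Of these 16, 14 were names in the table, in 16 names because miR-19b and miR-92a each appear under 2, and 14 names had at least 10 counts in every library. Their median share was 0.151%, beside 0.00724% over the 280 miRNAs, and together the listed names held 9.14% to 11.3% of a library. Both values include the 2 miR-19b names and the 2 miR-92a names. The count of miR-92a-2-5p was 0.923 to 0.935 times that of miR-92a-1-5p in the 4 libraries. Whether the same reads were counted under both names was not tested. Because the list was chosen with earlier results of these data known, its median share describes the chosen names and does not test the pathways. The highest of the listed names were miR-125b-5p with 3.84% ± 0.340 and miR-221-5p with 2.36% ± 0.420 (SD, n = 4). In all 4 libraries miR-125b-5p exceeded miR-221-5p. The lowest were miR-212-5p with 29, 67, 63 and 55 counts in replicates 1 to 4 and miR-19a-5p with 842, 203, 218 and 229. miR-21-5p was above both miR-125b-5p and miR-221-5p in replicate 1, below both in replicates 2 and 3 and between them in replicate 4. Without replicate 1 its mean share of 2.24% was below the 2.45% of miR-221-5p (n = 3). By mean share, miR-155-5p stood just above miR-222-5p with 0.257%, and the miR-146 pair lay to either side of miR-19a-5p near the bottom. Replicate 1 decided the latter order. Without it the mean share of miR-19a-5p was 0.00170%, below the 0.00257% of miR-146b-5p and the 0.00306% of miR-146a-5p (n = 3).

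The listed names did not share 1 pattern across the libraries. Among the 6 NF-kB or AP-1 names with enough counts none was called for a library standing apart, and their median difference of replicate 1 from the others was -0.12 on the log2 scale. Among the 8 STAT3 names 3 were called, namely miR-19a-5p, miR-19b-1-5p and miR-19b-2-5p, with replicate 1 high in each. The 2 miR-19b names are not separate evidence, given their nearly equal counts. miR-17, miR-18a, miR-19a, miR-20a, miR-19b-1 and miR-92a-1 are encoded in 1 cluster. On the log2 scale, replicate 1 differed from the others by 1.99 for miR-19a-5p, 1.40 for miR-19b-1-5p, 0.79 for miR-20a-5p, 0.07 for miR-17-5p and -0.53 for miR-92a-1-5p, while miR-18a-5p had a value in replicate 4 only. Over both parts of the list, 3 of 14 names were called, beside 11.1% of all 280 miRNAs.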

How the data were processed

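miRNA sequencing of U-251 cells was analysed in 4 libraries of 1 group. The authors deposited unnormalized read counts per mature miRNA name, handled here as estimated counts, since 40 names hold values that are not whole. Per the study's methods the authors trimmed adaptors with Trimmomatic, discarded reads over 27 bases, aligned the others to hg38 using Bowtie and quantified miRNAs with miRDeep2. The miRNA annotation release and any use of molecular identifiers are not given in the sources used here. The labels describe a poly(A) mRNA library, the methods a miRNA kit. All value columns matched a sample.

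Python 3.11.15 was used for shares, ranks, Wilson intervals and exact sign-flip permutation tests, together with numpy 2.4.6, pandas 2.3.3, scipy 1.17.1 and, for plots, matplotlib 3.10.9. In R 4.3.3, DESeq2 1.42.0 and edgeR 4.0.16 gave alternative scaling factors from counts rounded to whole numbers, over names with at least 10 counts in every library. A counted 0 would allow up to 3 counts, or 2.43e-05% of the smallest library. This bound need not hold for a blank that was treated as 0, as for miR-132-5p. The call of a library standing apart and the SD of log2 values were tested on simulated counts. The sign-flip test was checked on a fixed set of values, and the other steps were not simulated. Sequences and positions came from RefSeq on GRCh38.p14 and host genes from GENCODE release 44, both on the build of hg38, counting from 1.

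The miRNAs and lists were chosen with earlier results of these data known. The miRNAs named are those matching the rule, the highest 2 and lowest 2 of the list with a value in every library, the 3 names most like each miRNA, neighbours by summed count and names with the same seed. miR-132-5p, miR-9-5p and the cluster of miR-17, as well as other names beyond this rule, were chosen after their values were seen or as cell type markers. Alternatives covered scaling, denominators, count minimum, pseudocount and leaving out each replicate.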

Additional observations from a re-analysis of the deposited data

Results flagged for a closer look

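Of 22 values examined for 1 outlying library, 6 exceeded Dixon's critical value, where chance gives about 1 in 20 groups and 11.1% of the 280 well counted miRNAs were called by the same rule. All 6 had replicate 1 as the library apart. The share of miR-21-5p had a gap of 0.911 of its range. The log2 ratio of miR-155-5p to miR-21-5p had a gap of 0.954, at -4.11 in replicate 1 against -2.82 to -2.76 elsewhere. The log2 ratio of miR-146b-5p to miR-21-5p had a gap of 0.920, at -10.54 in replicate 1 against -9.80 to -9.73 elsewhere. Both ratios hold the miR-21-5p count, so the 3 values are not independent, and neither are those of the 2 miR-19b names below, whose counts are nearly equal. For miR-19a-5p the gap was 0.950, from 0.00671% in replicate 1 against 0.00154% to 0.00180% elsewhere. For miR-19b-2-5p and miR-19b-1-5p it was 0.929 and 0.924, with 0.0421% and 0.0420% in replicate 1. What set replicate 1 apart was not tested.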

How the results depend on the processing

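Among the recomputed values no log2 ratio changed sign, while shares, ranks and SDs have no direction to reverse. Orders by mean share were not among these values. Without replicate 1, as given above, miR-21-5p fell below miR-221-5p and miR-19a-5p fell below miR-146b-5p. Other settings on the full set of libraries gave 52 recomputed values, of which 42 stayed within the spread or kept their direction and 10 moved further. Without Let-7 names in the denominator, shares rose by construction to 8.01% for miR-21-5p, 0.865% for miR-155-5p, 0.00955% for miR-146a-5p and 0.00757% for miR-146b-5p. The median rank of 9.5, 33.5 and 174.5 became 5, 36 and 179 by summed count for miR-21-5p, miR-155-5p and miR-146b-5p, and 167 for miR-146b-5p among names with at least 10 counts in every library, a shorter list. The SD of log2 CPM of miR-155-5p, 0.10, was 0.039 with TMM and 0.063 with upper-quartile factors, the cause of which was not tested.

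With one replicate left out, the SD of log2 CPM ranged from 0.099 (without replicate 1) to 0.79 for miR-21-5p, from 0.066 to 0.12 for miR-155-5p, from 0.41 to 0.70 for miR-146a-5p and from 0.11 (without replicate 1) to 0.35 for miR-146b-5p. The mean log2 ratio of miR-146b-5p to miR-146a-5p ranged from -0.49 without replicate 2 to -0.13 without replicate 3. The mean log2 ratio to miR-21-5p ranged from -3.24 to -2.79 for miR-155-5p, from -9.91 to -9.53 for miR-146a-5p and from -10.04 to -9.77 for miR-146b-5p. The 31 miRNAs with a library standing apart became 32 to 40 with other factors or count minimum, and the test needs all 4 libraries. Summing arms changed nothing, since 1 name per miRNA matched. The settings for the list of other miRNAs and the ranks of the SD under other factors were chosen after seeing the data. The list kept 14 names in each of them. Leaving out a replicate or lowering the count minimum cannot remove a name, so this number could only stay or rise.

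No paired analysis was possible because there is only 1 group. The exact sign-flip test cannot go below p = 0.13 with 4 libraries, or below 0.25 with 3. miR-146a-5p and miR-146b-5p rest on 271 to 648 counts, which limits the precision of their ratio.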
